A study of Mus musculus with 26 samples.

Results

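A group of 9 genes of the JAK-STAT pathway was followed in CD4 and CD8 double positive (DP) T-lineage cells of the thymus, the adipose tissue of the mediastinum and the arch of the aorta. They are the Janus kinase genes Tyk2, Jak1, Jak2 and Jak3, the transcription factor genes Stat3, Stat5a and Stat5b, and the inhibitor genes Socs1 and Socs3. The members were taken by symbol, and all 9 had a row among the 13765 genes of the deposited table. Tyk2 was chosen by its measured value, since it was among the genes lowest in arch relative to thymus, and the other 8 were listed as its pathway partners. For this reason differences between arch and thymus are given for the members as a description with no p. The other members and the gene lists used below were also chosen with earlier results of these data known. The p-values given for them therefore do not come from a choice blind to the data. How many of them passed the threshold used for all genes is counted beside the share of all genes, and nothing is read from it. A filter on low values, at least 100 in at least 4 of the 12 columns, kept 8 members among 9106 genes. Jak3 did not pass it.

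Female C57BL/6J mice aged 8 weeks, with no genotype or treatment named, gave cells to all 3 groups. Tissue of 5 mice was joined in each pool, and 4 pools per tissue were read as 9 thymus, 8 adipose and 9 arch libraries, which the deposited values join into 1 column per pool. The sort gate took viable CD4+CD8b+ cells without a T-cell receptor on their surface, and each library came from 200 of them. Arch and adipose tissue were digested first, digestion is not stated for thymus, and so tissue and this handling cannot be told apart. Values are normalised read counts, that is reads divided by a factor for each column. Adipose pool 2 was read as 1 library, and every other pool as 2 or 3. The pool is the replicate (n = 4 per tissue).

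Depth ranged from 11577253 to 34599519 recovered reads per column, and between 9091 and 11894 genes had a read. All 14 DP markers checked, among them Cd4, Cd8a, Rag1 and Ptcra, were detected in every pool. Their summed level was 29471 to 32017 CPM (reads scaled to a common total) in thymus, 11974 to 20003 in adipose tissue and 12991 to 15098 in arch, and 8 of the 14 passed limma's test as lower than thymus in each of the other tissues. Markers of some other cell types stood out in 3 columns. The fibroblast sum was 6063 CPM in arch pool 4 (59.1 to 385 in the other pools). The smooth muscle and macrophage sums were 1883 and 972 CPM in arch pool 2. In adipose pool 1 the B cell sum was 1232 CPM (2.80 to 309 in the other pools), mostly from Cd74. Without Cd74 it was 218 CPM there and 2.80 to 214 CPM in the other pools. Macrophage, endothelial and adipocyte sums in adipose pool 1 were 259, 273 and 177 CPM. In the other adipose pools they were 0 to 11.9, 65.3 to 126 and 0 to 11.5 CPM. NK and innate lymphoid markers differed beyond those 3 columns. Without Gata3, the most abundant, they summed to 14.8 to 22.7 CPM in thymus, 45.4 to 112 in adipose tissue and 90.8 to 218 in arch. With Gata3 the sums were 108 to 263, 53.1 to 171 and 169 to 267 CPM. Limma called 1 of 3 tested higher in adipose tissue and 1 in arch, beside 2.84% and 6.57% of all tested genes, and 1 each without those columns. Their part in the member values was not tested. In bulk samples, fewer cells of a type and less RNA per cell cannot be told apart.

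Cytokine receptors of this pathway lack enzyme activity of their own and carry Janus kinases on their inner side. A bound cytokine brings the kinases together, they phosphorylate the receptor, and STAT proteins dock there, are phosphorylated, pair and enter the nucleus. SOCS proteins, whose genes STATs switch on, bind kinases or receptors and damp the signal. In the thymus the pathway carries interleukin-7 signals before and after the DP stage, and DP thymocytes are known for high Socs1 and for weak cytokine responses.

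Upstream sequences of 5 members are shown here, and no expression value or test used them. Upstream windows from RefSeq (GRCm38.p6) were matched for 9 of 9 members, with 11 windows of 300 bases, each 250 before and 50 from an annotated start on. Those printed run 5′ to 3′ from 250 bases before the start to the start base. Tyk2 lies at chr9:21131275-21131525 on the minus strand, Stat3 at chr11:100939540-100939790 on the minus strand and Socs3 at chr11:117969366-117969616 on the minus strand. The downstream start of Stat5b is at chr11:100822570-100822820 on the minus strand, and the downstream start of Stat5a at chr11:100860234-100860484 on the plus strand. Capitals mark the start base in Tyk2 and Stat3, a STAT-type motif in Socs3, and in the Stat5 genes the 50 bases that match best between them.
Tyk2: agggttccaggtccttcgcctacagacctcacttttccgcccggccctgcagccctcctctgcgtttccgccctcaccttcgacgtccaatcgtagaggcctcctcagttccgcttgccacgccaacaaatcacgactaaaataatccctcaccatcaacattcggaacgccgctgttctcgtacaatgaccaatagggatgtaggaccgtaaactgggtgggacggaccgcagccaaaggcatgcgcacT
Stat3: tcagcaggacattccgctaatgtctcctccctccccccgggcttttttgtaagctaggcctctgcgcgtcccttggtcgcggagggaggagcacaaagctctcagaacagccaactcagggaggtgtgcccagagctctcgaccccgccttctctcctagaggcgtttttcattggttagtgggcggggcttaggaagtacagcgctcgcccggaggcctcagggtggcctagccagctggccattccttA
Stat5a: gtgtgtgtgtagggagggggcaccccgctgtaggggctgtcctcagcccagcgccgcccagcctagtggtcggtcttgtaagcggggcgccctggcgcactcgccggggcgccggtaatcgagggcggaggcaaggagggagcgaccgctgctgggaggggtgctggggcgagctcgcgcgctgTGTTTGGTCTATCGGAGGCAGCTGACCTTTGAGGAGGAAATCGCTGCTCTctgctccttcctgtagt
Stat5b: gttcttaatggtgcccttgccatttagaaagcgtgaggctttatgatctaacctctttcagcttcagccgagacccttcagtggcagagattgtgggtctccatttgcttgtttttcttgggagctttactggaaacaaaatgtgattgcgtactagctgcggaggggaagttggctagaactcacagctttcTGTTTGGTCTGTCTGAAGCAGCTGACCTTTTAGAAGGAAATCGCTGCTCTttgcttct
Socs3: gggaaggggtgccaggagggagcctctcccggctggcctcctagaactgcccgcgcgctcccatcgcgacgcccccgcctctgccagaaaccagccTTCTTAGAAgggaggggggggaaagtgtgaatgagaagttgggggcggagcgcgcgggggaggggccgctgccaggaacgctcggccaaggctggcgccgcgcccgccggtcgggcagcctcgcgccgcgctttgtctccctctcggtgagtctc

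In the capitals of the Stat5a and Stat5b windows, 45 of 50 bases were identical, starting 66 bases before the Stat5a start and 57 before the Stat5b start. Over the 53 pairs of windows from different members the next best ungapped match held 31 of 50. The STAT-type motif TTCNNNGAA (the gamma-activated site, searched on both strands, which read the same) was found in 1 of the 11 member windows. That match was TTCTTAGAA, beginning 154 bases before the Socs3 start, and 8.3% of 32851 windows of the same length held the motif. The cAMP response element TGACGTCA lay in the Jak1 window only, 101 bases before the start (1.79% of all windows), and the heat shock motif GAANNTTC in none of the 11 (7.86% of all windows). These matches are letters in a window and no binding was measured.

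Stat5b (chr11:100780731-100850724, minus strand), Stat5a (chr11:100859351-100885169, plus strand) and Stat3 (chr11:100885098-100939540, minus strand) are neighbours on chromosome 11 (GRCm38, GENCODE M21). Between Stat5b and Stat5a lie 8626 bases, and the exons of Stat5a and Stat3 overlap by 72 bases on opposite strands, 1.01% of the Stat5a exons. The coding sequences of Stat5a (2391 bases) and Stat5b (2358 bases) share an identical run of 324 bases at coding positions 571 to 894 of each. It begins as follows.
Stat5a and Stat5b: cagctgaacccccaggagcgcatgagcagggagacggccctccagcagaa
A read of 50 bases from that run belongs to either gene. Of all 50-base stretches of the transcripts, 8.52% in Stat5a and 10.985% in Stat5b occur in another gene, so counts of these genes could be shifted by how shared reads were counted, which the sources used here do not give.

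**Figure D1:**
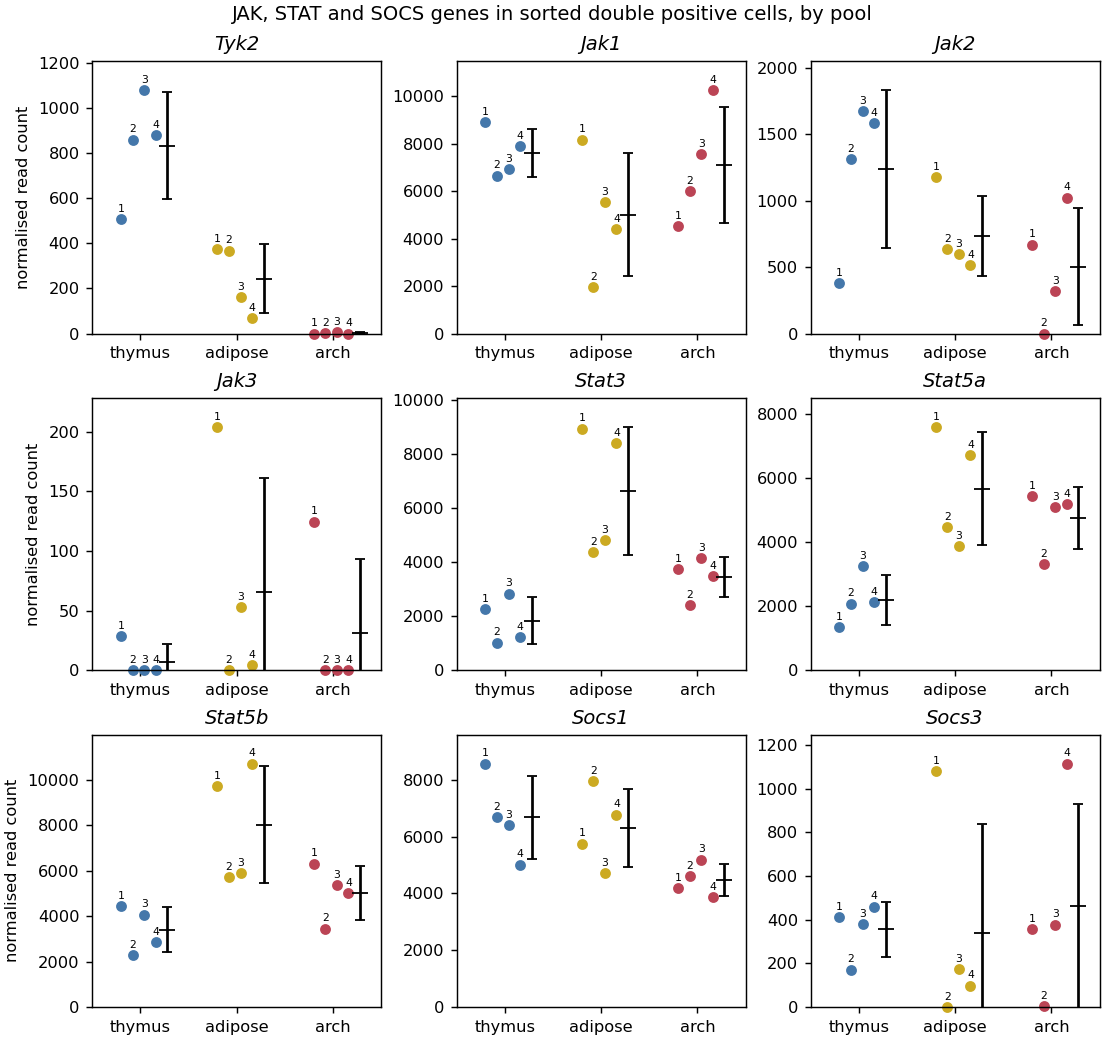
Normalised read counts of the 9 members (linear axes from 0, 1 panel per gene) in each pool; points are pools with their number, and the black mark and bar are the mean ± SD of 4 pools, cut off at 0. Tyk2 lies between 508.3 and 1079.3 in thymus and at 0 to 5.7 in arch, while Stat3, Stat5a and Stat5b are higher in all 4 adipose pools than in any thymus pool.

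Tyk2 (ENSMUSG00000032175.11, chr9:21104068-21131243, minus strand) encodes the kinase that sits on receptors for type I interferons, interleukin-12 and the interleukin-10 family. It stood at 508.3, 860.2, 1079.3 and 881.8 in thymus pools 1 to 4, at 373.1, 367.4, 162.6 and 66.6 in adipose pools 1 to 4, and at 0, 1.9, 5.7 and 0 in arch pools 1 to 4. Every thymus pool was above every adipose pool, and every adipose pool above every arch pool. The arch values rest on 8 reads in all, 1 in pool 2 and 7 in pool 3, against 3858 reads in thymus and 1220 in adipose tissue. For arch pools 1 and 4, with no read, a count of 0 allows up to 2.44 and 4.66.

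The thymus mean of Tyk2, 832 ± 237, was 441 times the arch mean of 1.89 ± 2.67 (SD, n = 4 each; exact 95% Poisson interval of the ratio 224 to 1021, which covers counting error of the arch reads only). The adipose mean of 242 ± 153 (SD, n = 4) was 128 times the arch mean (65.1 to 297). Arch pool 3 held 7 of the 8 arch reads, and without it the ratios rested on 1 read and were 1313 (236 to 51850) for thymus and 382 (68.6 to 15100) for adipose tissue. With any other arch pool left out they were 331 to 442 and 96.3 to 129. On the scale of log2(normalised read count + 20), where the added 20 lowers changes of weak genes, Tyk2 differed by -5.24 ± 0.92 (SE) between arch and thymus, by -1.90 ± 0.92 between adipose tissue and thymus and by -3.35 ± 0.92 between arch and adipose tissue. These comparisons share the arch or thymus pools that chose Tyk2, so no p is given for it. An antisense gene, 1700084C06Rik, covers 554 bases (8.07%) of the Tyk2 exons and has no row in the table, and whether the counting used strand is not given in the sources used here.

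Jak1 (chr4:101152367-101265282, minus strand) encodes the partner kinase of most of these receptors. It was at 8905.7, 6652.8, 6942.0 and 7906.8 in thymus, 8175.4, 1950.4, 5546.9 and 4390.7 in adipose tissue, and 4532.6, 6003.3, 7547.8 and 10255.3 in arch (pools 1 to 4). The 3 tissues overlapped, with the lowest value in adipose pool 2, the pool of 1 library, and the highest in arch pool 4. Adipose minus thymus was -0.76 ± 0.35 (SE; limma adjusted p = 0.372; 95% interval -1.50 to -0.02), and arch minus adipose 0.61 ± 0.35 (limma adjusted p = 0.556; -0.13 to 1.35). Without adipose pool 2 these differences were -0.37 and 0.21.

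Jak2 (chr19:29251828-29313080, plus strand) serves the interferon-gamma receptor and, with Tyk2, the interleukin-12 receptor. Its values were 376.4, 1311.3, 1673.6 and 1585.5 in thymus, 1179.0, 636.1, 595.1 and 515.8 in adipose tissue, and 668.6, 0, 316.6 and 1023.0 in arch. Thymus pool 1 was far below the other thymus pools, and arch pool 2, the column with the fewest reads, had none, which allows up to 5.71. The means were 1237 ± 594, 732 ± 303 and 502 ± 442 (SD, n = 4), and the pools of the tissues overlapped. Adipose minus thymus was -0.62 ± 1.00 (limma adjusted p = 0.881; 95% interval -2.71 to 1.47) and arch minus adipose -1.44 ± 1.00 (limma adjusted p = 0.641; -3.53 to 0.65). The latter was -0.20 without arch pool 2, and adipose minus thymus was -1.11 without thymus pool 1.

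Jak3 (chr8:71676296-71690575, plus strand) encodes the kinase bound to the common gamma chain of the interleukin-2 and interleukin-7 receptors. It was at 28.9, 0, 0 and 0 in thymus, 204.0, 0, 53.0 and 4.5 in adipose tissue, and 124.6, 0, 0 and 0 in arch. There was no read in 7 of the 12 columns, and pool 1 was the highest pool in each tissue. Insl3 lies over 404 bases (7.55%) of the Jak3 exons on the same strand and has no row in the table. Jak3 was not tested, and it reached 100 in 2 columns only.

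Within each pool the kinases can be set against each other per length of annotated exons, which assumes reads spread over all exons. Jak1 made up 66.2% to 88.9% of the summed level of the 4 kinases (CPM per kb) in thymus, 59.99% to 84.3% in adipose tissue and 80.1% to 99.97% in arch. The Tyk2 share was 5.34%, 9.59%, 10.8% and 8.35% in thymus pools 1 to 4, 3.73%, 11.9%, 2.58% and 1.35% in adipose pools 1 to 4, and 0%, 0.0333%, 0.0743% and 0% in arch pools 1 to 4. Thymus and adipose shares overlapped through adipose pool 2, where Jak1 was low, and all arch shares lay below both. No test was run on these shares.

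The 3 STAT genes were higher in adipose tissue than in thymus by 2.33 to 3.71-fold on the log2(value + 20) scale, and each passed limma's test there. Stat3, which carries signals of interleukin-6 and interleukin-10 type cytokines, was at 2271.0, 1018.0, 2838.8 and 1222.5 in thymus, 8941.3, 4367.0, 4808.5 and 8397.4 in adipose tissue, and 3737.0, 2398.7, 4145.4 and 3490.5 in arch. All adipose pools were above all thymus and all arch pools, and adipose pools 1 and 4 were about level at the top. The difference between adipose tissue and thymus was 1.89 ± 0.37 (SE; limma adjusted p = 0.00517). It was called under each of 23 alternative settings, with adjusted p from 1.21e-05 to 0.0313. Arch minus adipose was -0.90 ± 0.37 (limma adjusted p = 0.425; 95% interval -1.67 to -0.12), which did not pass.

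Stat5a, with Stat5b the main STAT of interleukin-2 and interleukin-7 signals, was at 1343.2, 2077.2, 3255.4 and 2119.2 in thymus, 7594.3, 4478.8, 3882.0 and 6725.7 in adipose tissue, and 5434.0, 3323.1, 5082.2 and 5197.6 in arch. Every adipose and every arch pool was above every thymus pool, although arch pool 2 (3323.1) and thymus pool 3 (3255.4) were close. Adipose minus thymus was 1.37 ± 0.32 (limma adjusted p = 0.0226). Arch minus adipose was -0.22 ± 0.32 (limma adjusted p = 0.844; 95% interval -0.90 to 0.46), and those pools overlapped.

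Stat5b was at 4426.5, 2273.2, 4060.9 and 2865.8 in thymus, 9736.3, 5733.6, 5891.9 and 10709.2 in adipose tissue, and 6309.5, 3444.9, 5363.2 and 4995.5 in arch. All adipose pools were above all thymus pools, with pools 1 and 4 highest as for the other STAT genes, and the arch pools reached into both ranges. Adipose minus thymus was 1.22 ± 0.30 (limma adjusted p = 0.0306) and arch minus adipose -0.65 ± 0.30 (limma adjusted p = 0.469; 95% interval -1.28 to -0.01). Adipose pool 1 held raised markers of other cells, and their part in these values was not tested. The B cell sum was 1232 CPM in adipose pool 1 and 27.4 to 182 CPM in the other adipose pools. Without Cd74 it was 218 CPM in adipose pool 1. The macrophage sum was 259 CPM there and 0 to 11.9 CPM in the other adipose pools.

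Calls of the Stat5 genes in adipose tissue against thymus depended on single pools. The limma adjusted p of Stat5a was 0.0826, 0.0531 and 0.0508 without thymus pools 1, 2 and 4, and 0.0959 and 0.0971 without adipose pools 1 and 4. For Stat5b it was 0.113 and 0.0883 without thymus pools 2 and 4, 0.11 and 0.14 without adipose pools 1 and 4, and 0.0681 with no filter on low values. Without the 3 columns with raised markers of other cells the values were 0.0223 for Stat3, 0.0595 for Stat5a and 0.0662 for Stat5b, at log2 differences of 1.72, 1.22 and 1.11.

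**Figure D2:**
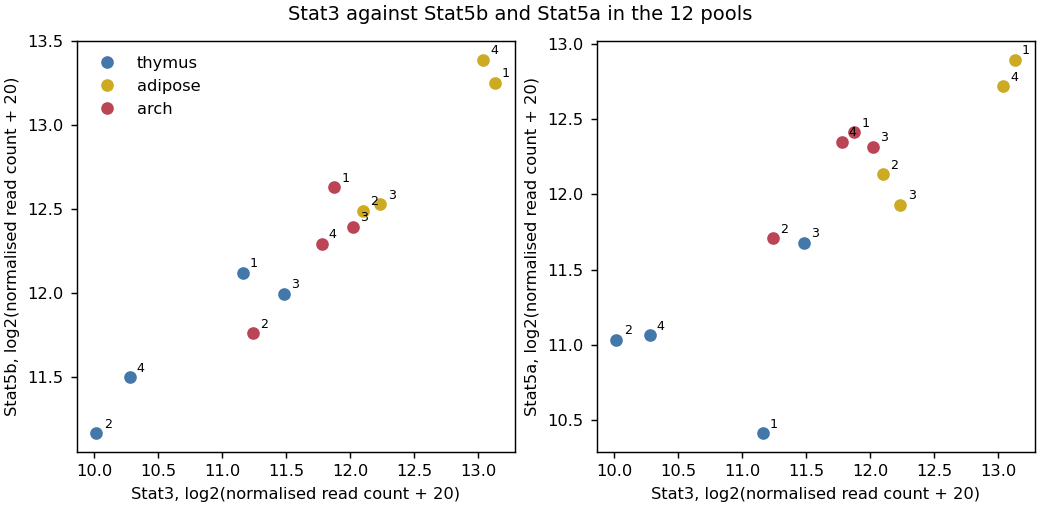
Each point is 1 of the 12 pools, placed by log2(normalised read count + 20) of Stat3 on the horizontal axis and of Stat5b (left) or Stat5a (right) on the vertical axis; colours are tissues and numbers are pools. Adipose pools 1 and 4 lie at the upper right in both panels, and thymus pools 2 and 4 at the low end of Stat3.

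Per length, Stat3 stood at 0.248 to 0.406 of Stat5b within thymus pools, 0.443 to 0.534 within adipose pools and 0.344 to 0.449 within arch pools. The adipose pools were thus all above the thymus pools in this ratio, and arch overlapped both. Stat5a stood at 0.236 to 0.710 of Stat5b in thymus, 0.488 to 0.607 in adipose tissue and 0.669 to 0.808 in arch. Arch pools were above adipose pools, thymus pool 2 (0.710) lay within the arch range, and these ratios were not tested.

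Socs1 (chr16:10782240-10785536, minus strand), the inhibitor of interferon-gamma and common gamma chain cytokine signals, was at 8570.0, 6698.4, 6414.7 and 5018.8 in thymus, 5751.7, 7946.8, 4723.7 and 6778.9 in adipose tissue, and 4186.5, 4616.6, 5191.2 and 3866.7 in arch. The arch pools were at the low end, but arch pool 3 overlapped with 1 thymus and 1 adipose pool. Means were 6675 ± 1461 in thymus, 6300 ± 1382 in adipose pools and 4465 ± 573 in arch (SD, n = 4). Adipose minus thymus was -0.08 ± 0.25 (limma adjusted p = 0.945; 95% interval -0.60 to 0.44), and it turned to 0.04 without thymus pool 1 and to 0.05 without adipose pool 3. Arch minus adipose was -0.48 ± 0.25 (limma adjusted p = 0.511; 95% interval -0.997 to 0.042).

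Socs3 (chr11:117966079-117970047, minus strand), the inhibitor induced by Stat3 and acting on receptors with the gp130 chain, was at 411.5, 171.3, 380.2 and 459.5 in thymus, 1079.7, 0, 172.2 and 97.3 in adipose tissue, and 358.3, 3.8, 377.1 and 1114.8 in arch. Its highest values came from adipose pool 1 and arch pool 4, which are also pools with raised markers of other cells. The B cell sum of the former was 1232 CPM, mostly Cd74, and the fibroblast sum of the latter 6063 CPM. Arch pool 2, the other pool with raised markers, had Socs3 at 3.8. The part of those cells in Socs3 was not tested. In the thymus pools, which all had Socs3 reads, B cell markers without Cd74 summed to 71.0 to 214 CPM, beside 218 CPM in adipose pool 1. Fibroblast markers without Gsn, the most abundant of them, summed to 0 to 3.83 CPM in thymus, beside 3818 CPM in arch pool 4. The 0 of adipose pool 2 allows up to 4.36. Adipose minus thymus was -1.25 ± 1.28 (limma adjusted p = 0.787; 95% interval -3.93 to 1.43) and arch minus adipose 0.76 ± 1.28 (limma adjusted p = 0.87; -1.93 to 3.44), so a change of several-fold in either direction was not detectable here. Without adipose pool 2 they were -0.28 and -0.21, and without adipose pool 1 they were -2.21 and 1.72. By edgeR and DESeq2 adipose minus thymus was -0.02 and -0.06.

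Per length of exons, Socs1 was the highest member in each tissue, at 117 ± 24.6 CPM per kb in thymus, 107 ± 22.4 in adipose pools and 70.7 ± 9.76 in arch (SD, n = 4). In thymus it was followed by Jak1 (54.0 ± 7.72), Stat5b (31.5 ± 9.26), Stat5a (15.8 ± 5.63), Jak2 (12.6 ± 6.12), Stat3 (9.87 ± 4.60), Socs3 (6.33 ± 2.34), Tyk2 (6.22 ± 1.78) and Jak3 (0.0689 ± 0.138). Neighbours from Stat5a to Tyk2 in that order differed by less than their spread. In adipose tissue Stat5b came next after Socs1 at 72.0 ± 24.5 CPM per kb, ahead of Stat5a (39.5 ± 13.4), Stat3 (34.6 ± 13.2) and Jak1 (34.6 ± 18.6), the last 3 within their spread of each other, and the lowest were Jak2 (7.24 ± 3.22), Socs3 (5.93 ± 8.90), Tyk2 (1.75 ± 1.116) and Jak3 (0.620 ± 0.917). In arch the order after Socs1 was Jak1 (44.95 ± 14.9), Stat5b (41.9 ± 10.6), Stat5a (30.8 ± 6.54) and Stat3 (16.7 ± 3.82), where Jak1 and Stat5b were within their spread. Socs3 (7.33 ± 7.24) and Jak2 (4.59 ± 3.98) came next, and Tyk2 was last at 0.0127 ± 0.0181 below Jak3 at 0.274 ± 0.548 CPM per kb.

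Across the 8 tested members, arch minus thymus also held -0.16 ± 0.35 for Jak1, -2.05 ± 1.00 for Jak2, 0.99 ± 0.37 for Stat3, 1.15 ± 0.32 for Stat5a, 0.58 ± 0.30 for Stat5b, -0.56 ± 0.25 for Socs1 and -0.49 ± 1.28 for Socs3 (log2, SE). The median of the members was -0.32, beside -0.20 over all 9106 genes. Limma called 1 member higher (Stat5a) and 1 lower (Tyk2) there, where 6.57% of all tested genes were called, and the pools did not overlap for the same 2 members, as for 13.2% of all genes. Without the 3 columns with raised markers of other cells the count was 0 higher and 1 lower. Jak2 stood at -0.81 and Socs3 at 0.64 without arch pool 2, and Jak1 at 0.04 without arch pool 1.

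Adipose tissue against thymus had 3 of the 8 tested members called, all STAT genes and all higher, where 2.84% of all tested genes were called. Pools did not overlap for those 3 and for Tyk2, as for 10.5% of all genes. The median of the tested members was -0.35, beside -0.01 over all genes. Without the 3 shallowest columns per library (thymus pool 3, arch pools 2 and 4) 3 members were called, and without the 3 columns with raised markers of other cells 1 was. Arch against adipose tissue had 0 of 8 members called by limma (3 at an unadjusted p under 0.05, 0 by edgeR, 1 by DESeq2), where 0.176% of all tested genes were called. Tyk2 was the member that DESeq2 called and 1 of the 3, and nothing is read from it. Pools of arch and adipose tissue did not overlap for Tyk2 and Stat3, both lower in arch, as for 5.35% of all genes. The first comparison shares its thymus pools, and the second its arch pools, with the contrast that chose Tyk2.

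**Figure D3:**
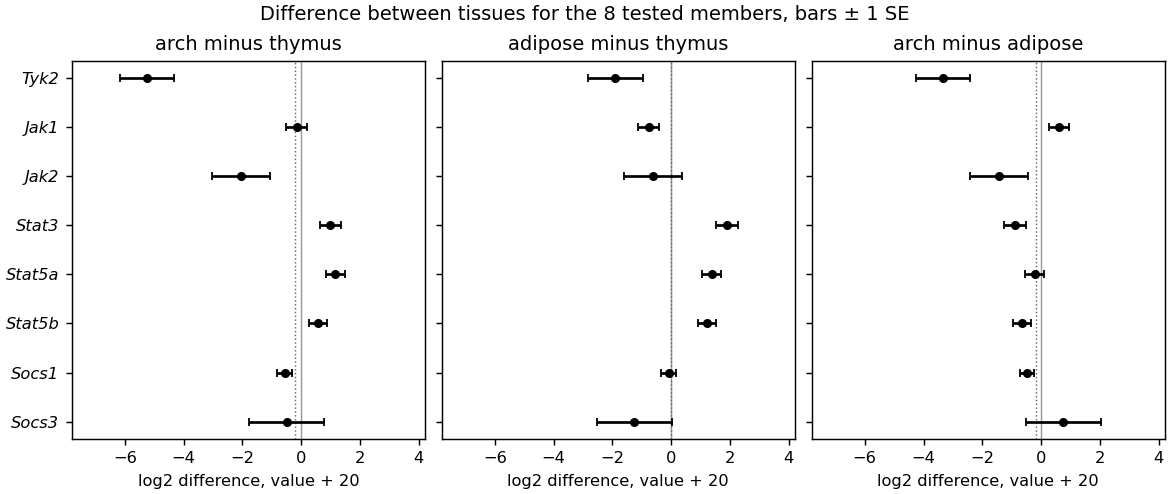
Differences of log2(normalised read count + 20) between tissues for the 8 tested members, 1 panel per comparison; points are limma estimates, bars ± 1 SE, the solid line is 0 and the dotted line the median of all 9106 tested genes. Tyk2 lies at -5.24 in arch minus thymus, and Stat3, Stat5a and Stat5b lie between 1.22 and 1.89 in adipose minus thymus, while Jak2 and Socs3 have wide bars.

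Genes beside Tyk2 on chromosome 9 were looked at next. Of 11 neighbours listed, 6 had a row and 4 were tested (Icam1, Raver1, Cdc37 and Keap1). Limma called 0 of the 4 in arch against thymus, adipose tissue against thymus and arch against adipose tissue. Of all tested genes 6.57%, 2.84% and 0.176% were called there, so 0 of 4 is near that share. At an unadjusted p under 0.05 there were 0, as by edgeR and by DESeq2. The median of the 4 in arch minus thymus was -0.83, beside -0.20 over all genes. Raver1 stood at -1.09 ± 0.93 (SE) there, Keap1 at -0.77 ± 0.93 and Icam1 at 0.78 ± 1.33. Cdc37, whose protein is a helper of HSP90 for kinases, lies 1979 bases from Tyk2 and stood at 3762 ± 975.4 in thymus, 2548 ± 540 in adipose pools and 2340 ± 1447 in arch (SD, n = 4). Its difference between arch and thymus was -0.89 ± 0.43 (limma adjusted p = 0.22).

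By Pearson's r of log2 values over the 12 columns, which share the 3 tissues, the genes most like Tyk2 were Homez (0.946), Syk (0.939), Fcho1 (0.927), Rbks (0.926) and Pgls (0.919). Syk encodes a kinase of early receptor signalling, and it stood at 497 ± 219 in thymus, 128 ± 111 in adipose pools and 8.08 ± 16.2 in arch (SD, n = 4). Fcho1, an endocytosis gene, was at 1974 ± 463, 1018 ± 464 and 104 ± 32.95, and Rbks, the ribokinase gene, at 356 ± 162, 252 ± 125 and 4.44 ± 8.35 in the same order. Homez, a homeobox gene, fell within 130 to 363 in thymus, 18.7 to 312 in adipose tissue and 0 to 5.71 in arch. Pgls was at 2636 ± 446, 1627 ± 250 and 1097 ± 262.5, and so kept more of its level in arch. All 5 had their highest tissue mean in thymus and their lowest in arch. Their choice by likeness to Tyk2 over these same columns largely fixed that order in advance.

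Most like Socs1 were Pigt (0.875), Gstk1 (0.871), Zfp346 (0.868), Meis3 (0.865) and Pcmtd2 (0.841), and most like Socs3 were Setd1a (0.913), Gatad1 (0.904), Gpd2 (0.901), Zdhhc5 (0.874) and Rin3 (0.870), again Pearson's r over 12 columns. Gatad1, a chromatin-associated gene, ranged from 906 to 1286 in thymus, from 206 to 1214 in adipose tissue and from 199.7 to 2775 in arch, so that its tissues overlapped as those of Socs3 did. Pcmtd2, one of the genes most like Socs1, was at 3521 ± 1295 in thymus, 3893 ± 1206 in adipose pools and 1563 ± 507 in arch (SD, n = 4).

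**Figure D4:**
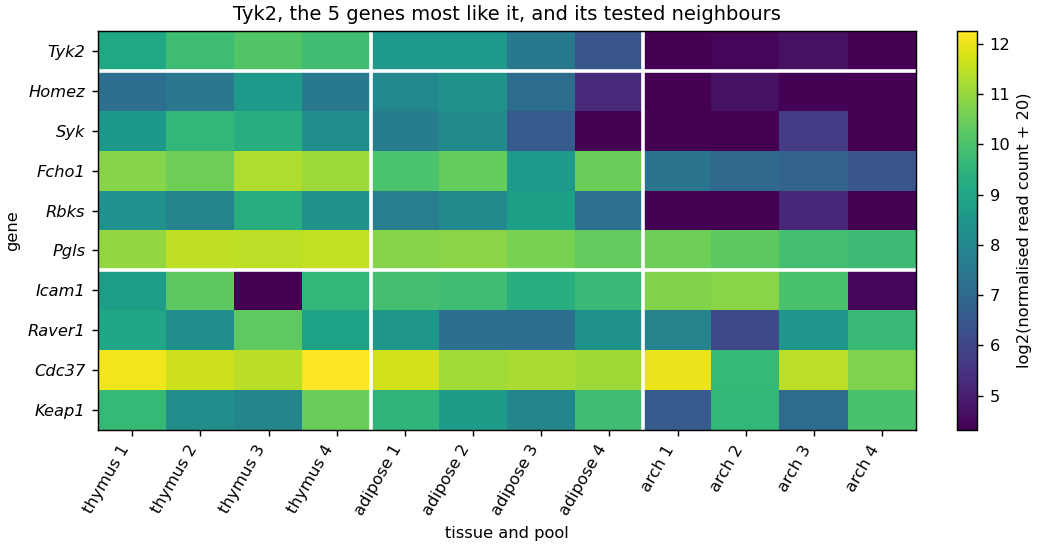
Heat map of log2(normalised read count + 20) (colour bar) for Tyk2, the 5 genes most like it and its 4 tested neighbours (rows) in the 12 pools (columns, grouped by tissue with white lines). Tyk2, Homez and Rbks are darkest in the 4 arch pools. Syk is at 0 to 32.3 in arch and also reaches 0 in adipose tissue, whereas Cdc37, next to Tyk2, is at 778 or more in every pool.

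Other genes of the pathway were taken by role from lists. Limma called 6.57% of all 9106 tested genes in arch against thymus. The share was 2.84% in adipose tissue against thymus and 0.176% in arch against adipose tissue. All 4 other STAT genes were tested, and limma called 0 in each comparison (1, 1 and 2 at an unadjusted p under 0.05; 0 by edgeR; DESeq2 called 1 higher in adipose tissue than in thymus and 1 lower in arch than in adipose tissue). Without the 3 shallowest columns, or without the 3 with raised markers of other cells, limma called 1 of the 4 higher in adipose tissue than in thymus. Stat4, the STAT of interleukin-12 signals, was at 1229 ± 549 in thymus, 4860 ± 712 in adipose pools and 926 ± 853 in arch (SD, n = 4). Its pools ranged from 756 to 2013, from 3863 to 5478 and from 141 to 2141, so the adipose pools stood above all others. The differences were 2.05 ± 0.59 for adipose minus thymus (limma adjusted p = 0.0774) and -2.88 ± 0.59 for arch minus adipose (limma adjusted p = 0.0611). Stat6 overlapped between tissues at means of 2020, 2258 and 1801.

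Of 6 other SOCS family genes, 4 were tested and limma called 0 in any comparison, and edgeR, DESeq2 and an unadjusted p under 0.05 gave 0 as well. Socs4, whose protein belongs to the same family of adaptor subunits, stood at 533 ± 317 in thymus, 886 ± 477 in adipose pools and 627 ± 298 in arch (SD, n = 4). Among 14 other inhibitor genes, 13 were tested, and limma called 1 lower in arch than in thymus and 0 in the other comparisons (4 and 1 at an unadjusted p under 0.05; 0 by edgeR and DESeq2). That gene was Ptpn6, which encodes the phosphatase SHP-1, at 5010 ± 3093 in thymus, 2073 ± 533 in adipose pools and 1422 ± 1302 in arch (SD, n = 4; arch minus thymus -2.02 ± 0.53, limma adjusted p = 0.0275). In arch against thymus edgeR called 0 of the 13, and DESeq2 called 1 higher and 1 lower. Limma called 6.57% of all tested genes there.

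Cytokine receptor genes numbered 36, of which 31 had a row and 17 were tested. Limma called 1 lower in arch than in thymus, where 6.57% of all tested genes were called. It called 0 in adipose tissue against thymus (5 at an unadjusted p under 0.05; 0 by edgeR; 3 higher and 1 lower by DESeq2). In arch against adipose tissue it also called 0 (3 at an unadjusted p under 0.05; 0 by edgeR; 1 lower by DESeq2). In adipose tissue against thymus limma called 1 lower without the 3 shallowest columns, and 1 higher and 1 lower without the 3 with raised markers of other cells. The gene called lower in arch was Il21r, the interleukin-21 receptor chain that signals through Jak1, Jak3 and Stat3. It stood at 5278 ± 575 in thymus, 2003 ± 904 in adipose pools and 669 ± 308 in arch (SD, n = 4), with every thymus pool (4764 to 6096) above every adipose pool (1022 to 3017). Arch minus thymus was -3.07 ± 0.44 (limma adjusted p = 0.000202) and adipose minus thymus -1.50 ± 0.44 (limma adjusted p = 0.0827). Of 20 cytokine ligand genes 7 had a row and 0 passed the filter on low values, so none was tested.

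Genes known as STAT targets moved both ways. Of 20 listed, 15 were tested. In arch against thymus limma called 2 higher and 3 lower, where 6.57% of all tested genes were called (edgeR 1 higher and 2 lower, DESeq2 5 higher and 2 lower). The median of the 15 there was 0.75, beside -0.20 over all genes. Junb and Fos, subunits of the transcription factor AP-1 that many other signals also induce, rose by 4.26 ± 0.43 and 4.17 ± 0.85 (limma adjusted p = 4e-06 and 0.00509). Ccnd3, the cyclin D3 gene, Bcl2l1, which encodes the survival protein Bcl-xL, and Bcl6, a repressor gene, fell, with differences of -1.78 ± 0.27, -1.96 ± 0.34 and -3.76 ± 0.97 (limma adjusted p = 0.000369, 0.00147 and 0.0249). In adipose tissue against thymus Junb rose by 3.19 ± 0.43 and Ccnd3 fell by 1.95 ± 0.27 (limma adjusted p = 0.000153 and 0.000201), and edgeR also called 1 higher and 1 lower. Without the 3 shallowest columns, or without the 3 with raised markers of other cells, limma called 1 higher and 3 lower there. Arch and adipose tissue differed in 0 of the 15 by limma (3 at an unadjusted p under 0.05; 0 by edgeR; 1 higher by DESeq2).

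Of 22 interferon-induced genes, a readout of signals that use Tyk2 and Jak1, 21 had a row and 13 were tested. Limma called 0 in arch against thymus, in adipose tissue against thymus and in arch against adipose tissue. Of all tested genes 6.57%, 2.84% and 0.176% were called there, so 0 of 13 is near that share. At an unadjusted p under 0.05 there were 2, 1 and 1, and edgeR and DESeq2 called 0 in each. The medians of the 13 were -1.32, -0.59 and -0.41, beside -0.20, -0.01 and -0.17 over all genes. Stat2, a STAT of type I interferon signals, stood at 1417 ± 389 in thymus, 1064 ± 681 in adipose pools and 572 ± 199 in arch (SD, n = 4), with arch minus thymus at -1.32 ± 0.66 (limma adjusted p = 0.246).

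**Figure D5:**
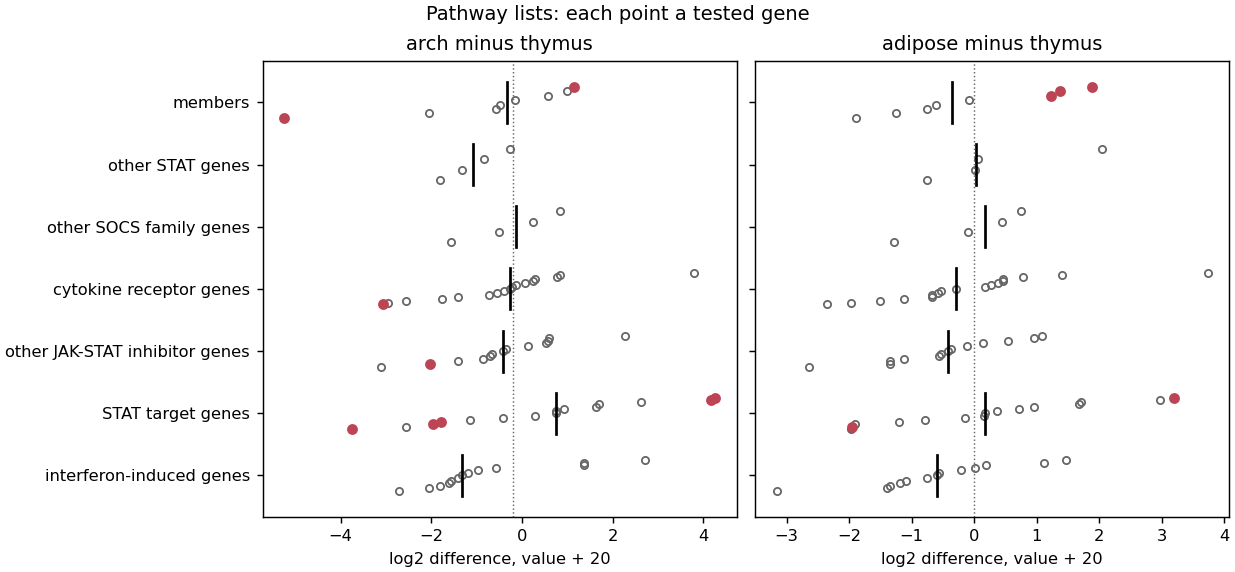
Each point is a tested gene of a pathway list (rows) with its log2 difference of normalised read count + 20 in arch minus thymus (left) and adipose minus thymus (right); filled red points passed limma's test, black bars are list medians and the dotted line is the median of all tested genes. Filled points on both sides of 0 appear among STAT target genes, and no interferon-induced gene is filled in either panel. Of all tested genes 6.57% (left) and 2.84% (right) passed.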

How the data were processed

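RNA of sorted DP cells was read as single ends of 50 bp after 18 cycles of amplification. The deposited values are a signal, 1 normalised read count per gene and pool, made by the authors, who had joined the libraries of each pool. FastQC 0.11.5, STAR 2.6.0c and GRCm38 are named per the submitters' processing notes, and neither the annotation nor the counting tool and its use of strand is given in the sources used here. All 120369 values above 0 (100%) were whole multiples, within 0.01, of the value of 1 read in their column, so reads were recovered. As the deposited signal is not raw counts, limma 3.58.1 (R 4.3.3, intensity trend) on log2(value + 20) was the main test, in 1 fit of all 12 columns with tissue as the only term. Tested were the 9106 genes that reached 100 in 4 or more columns, and a Benjamini-Hochberg adjusted p under 0.05 over all of them was a call. With edgeR 4.0.16 on recovered reads 365, 212 and 8 genes were called in arch against thymus, adipose tissue against thymus and arch against adipose tissue, and DESeq2 1.42.0 was a further alternative. The scripts were tested on simulated data. Other alternatives were the pseudocount, the filter, TMM scaling, the pool number as a block, a fit of 2 tissues and leaving out columns.

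The members and lists were chosen with earlier results of these data known. Named were all 9 members, from each list up to 4 called genes with the smallest p or else the 2 most abundant, and the 5 genes most like Tyk2, Socs1 and Socs3, leaving out predicted genes; a gene that this rule names is not reported here. Genes without a row in the table were not analysed here. The labels do not say whether same-numbered pools share mice, and p-values measure only the spread between these pools. Reads carry no molecular identifiers, so intervals and limits cover counting error only. Gene positions and exon lengths are from GENCODE M21 (GRCm38) and promoter windows from RefSeq (GRCm38.p6).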

Additional observations from a re-analysis of the deposited data

Results flagged for a closer look

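In 4 of 27 groups of 4 pools (9 genes in 3 tissues, log2 scale) a single pool stood apart, its gap to the nearest pool, divided by the group's range, being above Dixon's 95% critical value. Chance flags about 1 in 20 groups. Jak2 was low in thymus pool 1, with a gap of 0.834 of the range. Jak3 was high in thymus pool 1 and in arch pool 1, the only pools of their tissue with a read, with a gap of 1 of the range each. Stat5a was low in arch pool 2, the column with the fewest reads, with a gap of 0.864 of the range.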

How the results depend on the processing

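Genes called in arch against thymus numbered 598, and 365 by edgeR, 1007 by DESeq2, 308 without the 3 shallowest columns and 345 without the 3 columns with raised markers of other cells, a setting chosen after seeing the data. Leaving out each pool in turn gave 404 to 620. In adipose tissue against thymus 259 were called, 539 by DESeq2 and 169 to 317 with a pool left out (169 without adipose pool 4). In arch against adipose tissue 16 were called, and 9 with a pseudocount of 1, 2 with no filter, 8 by edgeR, 168 by DESeq2, 0 without the shallowest columns and 0 without the columns with raised markers. Leaving out each pool gave 2 to 17 there (2 without adipose pools 2 or 4, 3 without arch pool 2, 5 without arch pool 4 and 9 without adipose pool 3).

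Members called in arch against thymus, where 6.57% of all tested genes were called, fell from 2 to 1 in some settings, Stat5a being lost. These were no filter, edgeR, the replicate block, only 2 tissues in the fit and leaving out the columns with raised markers. With a pool left out 1 to 2 were called. Tyk2 was chosen by this contrast, so that it stayed called is no support, and nothing is read from it. In adipose tissue against thymus 3 became 1 without the columns with raised markers and 1 to 3 with a pool left out. In arch against adipose tissue 0 became 1 by DESeq2, the member being Tyk2, and stayed 0 to 0 with a pool left out. Socs3 in arch minus thymus turned from -0.49 to 0.38 by edgeR, 0.39 by DESeq2, 0.64 without arch pool 2 (-1.21 to 0.64 with a pool left out), 0.19 without the shallowest columns and 0.13 without the columns with raised markers. Without thymus pool 1 or adipose pool 3, Socs1 in adipose minus thymus was 0.045 in each (-0.212 to 0.0453 with a pool left out). Socs3 in arch minus adipose was -0.21 without adipose pool 2 (-0.21 to 1.89 with a pool left out), Jak1 in arch minus thymus 0.0366 without arch pool 1 (-0.355 to 0.0366 with a pool left out), and Stat5a in arch minus adipose 0.10 without the columns with raised markers. The cause was not tested. Leaving out each arch pool in turn, Jak2 in arch minus thymus ranged from -2.72 to -0.81 and in arch minus adipose from -2.10 to -0.20, the smallest differences being those without arch pool 2. The ratio of Tyk2 means of thymus and arch ranged from 331 to 1313, a setting chosen after seeing the data.

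The labels do not say that same-numbered pools share mice, and the values do not decide it. The deviations of same-numbered columns correlated at -0.0316 to 0.0756 over 12 pairs (median 0.0289). Those of other columns correlated at -0.0875 to 0.0731 over 36 (median -0.00355). These ranges overlap and all values are small, so shared mice can be neither shown nor excluded. With the pool number as a replicate block 608, 243 and 12 genes and 1, 3 and 0 members were called. Depth limits Tyk2 in arch and Jak3 in all tissues, where 3 reads are worth 1.70 to 5.71 normalised counts.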

Other observations

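Chains of receptors known to use Tyk2 were looked at after their values were seen. Il12rb2, the inducible chain of the interleukin-12 receptor, stood at 10.6 ± 21.2 in thymus, 753 ± 645 in adipose pools and 618 ± 460 in arch (SD, n = 4). Its pools ranged from 0 to 42.5, from 0 to 1304 and from 15.2 to 1135. The limma adjusted p was 0.21 for adipose minus thymus and 0.106 for arch minus thymus. Il12rb1, its partner chain, stood at 330, 134 and 18.1 (limma adjusted p = 0.161 for arch minus thymus). Ifnar1 and Ifnar2, the type I interferon receptor genes, had means of 2804, 3252 and 2284, and of 1036, 1405 and 1279, in the same order. Il6st, the gene of the gp130 chain, was at 755 ± 353 in thymus, 468 ± 259 in adipose pools and 1215 ± 214 in arch (SD, n = 4; limma adjusted p = 0.426 for arch minus adipose). Among abundant receptor genes, Il2rg, the common gamma chain gene, was at 29464 ± 4736, 20703 ± 6466 and 20370 ± 5581, and Ifngr1, the interferon-gamma receptor gene, at 19702 ± 3672, 35099 ± 12020 and 23443 ± 5091 (SD, n = 4). None of these genes passed limma's test in the 3 comparisons. Cish and Socs2, SOCS family genes known as STAT5 targets, did not pass the filter on low values and were not tested. Cish had no read in any thymus or arch pool and a mean of 126 ± 195 in adipose tissue, whereas Socs2 was at 6.01 ± 7.34 in thymus, 8.21 ± 11.6 in adipose pools and 185 ± 214 in arch (SD, n = 4).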
